A study of Mus musculus with 12 samples.

Results

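The mitochondrial genome of the mouse carries 37 genes, and all 37 were found, by symbols that start with mt-, among the 49489 rows of the total RNA table. They encode 13 mRNAs, 2 rRNAs and 22 tRNAs, and none has an intron. By the textbook arrangement, 28 are heavy-strand genes, read from the promoter that serves most of the genome, and 9 are light-strand genes, read in the opposite direction: mt-Nd6 and 8 tRNA genes. The libraries came from a pulldown of Gas5, a long noncoding RNA, in hippocampal neurons of newborn mice kept in culture to day 16. The antisense group and the sense group held 3 libraries each, and the labels do not say which word marks the capture and which the control. Since separate cultures are not stated for the libraries of a group, p-values cover the spread seen here, possibly a technical one, and nothing wider. The other 6 libraries of the series, of small RNA, were not analysed here.

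Both strands of mitochondrial DNA are transcribed into long precursors that span many genes. The tRNAs lie between most of the other genes, and cutting them out releases the mRNAs and rRNAs. The proteins are all subunits of the oxidative phosphorylation complexes of the inner membrane: complex I (the Nd genes), complex III (mt-Cytb), complex IV (the Co genes) and the ATP synthase (the Atp genes). Most RNA made from the light strand is noncoding and is degraded soon after it is made, whereas neurons hold large amounts of the heavy-strand mRNAs and rRNAs.

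The antisense libraries held 5775052 to 6293093 estimated counts and the sense libraries 6478779 to 10424167. Gas5 itself took 9.71% to 14.2% of the antisense counts and 32.7% to 57.1% of the sense counts. Levels are therefore given as CPM, the counts of a gene relative to a library total that TMM has scaled, which allows for such a difference. On library totals alone the median log2 fold change of all 20049 tested genes was 0.70, against -0.01 with TMM. All 8 neuronal markers examined had counts, with summed levels of 836 to 1071 CPM in antisense and 1065 to 1332 CPM in sense. Summed astrocyte markers stood at 779 to 979 CPM and 884 to 1143 CPM, oligodendrocyte markers at 256 to 293 CPM and 296 to 396 CPM, and vascular markers at 39.6 to 41.7 CPM and 44.1 to 51.0 CPM in antisense and sense. All 5 microglia markers had counts, at a sum of 15.4 to 19.6 CPM in antisense and 8.73 to 10.9 CPM in sense. The 3 erythroid markers reached 15.1 to 16.9 CPM in antisense and at most 0.474 CPM in sense. The part of these shifts in the results below was not tested. In pulldown libraries the number of cells of a type, the RNA per cell and what each pulldown retained cannot be told apart.

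The rows of light-strand genes held a larger part of the mitochondrial counts in antisense than in sense. Their share of the mitochondrial counts in antisense libraries 1, 2 and 3 was 0.468%, 0.328% and 0.495%, with exact 95% intervals of 0.398% to 0.547%, 0.280% to 0.381% and 0.408% to 0.592%. In sense libraries 1, 2 and 3 the share was 0.0848%, 0.0790% and 0.0686%, with intervals of 0.0600% to 0.116%, 0.0501% to 0.119% and 0.0460% to 0.0985%. Every antisense library lay above every sense library, with no overlap of the intervals, which rest on counts rounded to whole numbers (0.493% in antisense library 3) and cover counting error only. The group means were 0.430% ± 0.0901 in antisense and 0.0775% ± 0.00820 in sense (SD, n = 3 each), 5.56 times as high in antisense. The two-sided exact permutation p was 0.1, the smallest that 3 against 3 libraries allow.

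**Figure D1:**
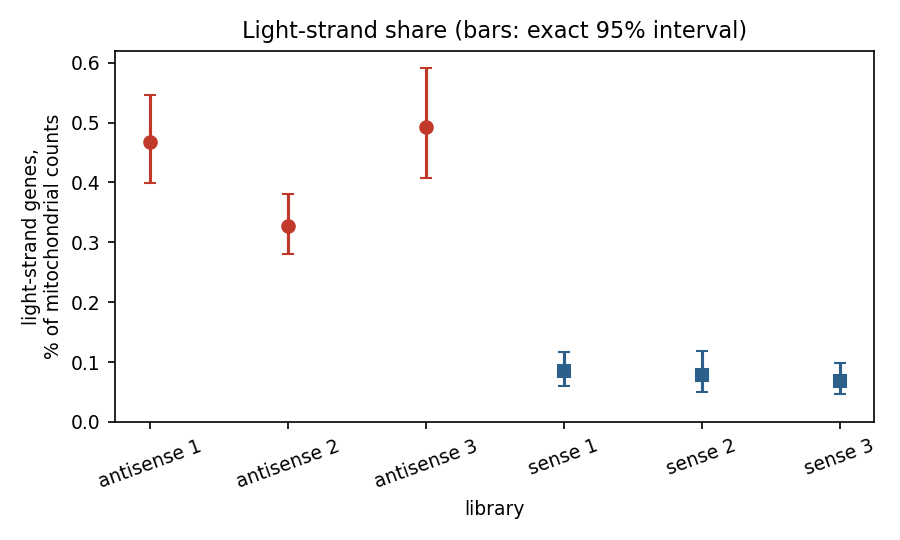
Percent of mitochondrial counts in the 9 light-strand genes, one point per library, with exact 95% intervals for counting error. The 3 antisense libraries sit between 0.328% and 0.493% in whole counts, above the sense libraries at 0.0686% to 0.0848%.

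In absolute counts the light-strand genes held 159, 167 and 116 counts in antisense libraries 1, 2 and 3 and 38, 23 and 29 in the sense libraries. Heavy-strand genes held 23391 to 50822 counts in antisense and 29089 to 44780 in sense, and the groups overlapped. Outside Gas5, all mitochondrial genes together took 0.647%, 0.944% and 0.457% of antisense counts and 1.003%, 0.667% and 1.03% of sense counts. That difference was within the spread between libraries (means 0.683% ± 0.246 and 0.901% ± 0.203, SD, n = 3 each; two-sided exact permutation p = 0.2). The rRNAs took 72.2% to 78.6% of mitochondrial counts in antisense and 82.7% to 83.8% in sense.

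Of the 37 genes, 15 had enough counts to be tested across the whole table with edgeR's quasi-likelihood test and Benjamini-Hochberg adjustment over all genes. Higher in antisense were 4, among them all 3 tested light-strand genes (mt-Nd6, mt-Tc and mt-Ty) and the heavy-strand mt-Nd5, and lower were 2, the heavy-strand mt-Nd4l and mt-Nd1. The remaining 9, all heavy-strand, did not pass. Of all 20049 genes tested in this fit, 18.2% were called higher and 4.35% lower. Without antisense library 2 the number of members lower was 7, beside 784 of all 20962 genes then tested. Without sense library 2 it was 4, beside 1100 of 21006. Without any one of the other 4 libraries it was 1, beside 492 to 743 of all genes. The tRNA genes mt-Tc and mt-Ty passed the filter on low counts only through their antisense counts, so that a difference was built into their being tested. The median log2 fold change of the 12 tested heavy-strand genes was -0.47, beside -0.01 for all genes. It takes each gene's own row, and some of these rows share reads with pseudogene rows, as described further on. Summed with those partners, mt-Nd4l, mt-Atp6, mt-Nd3, mt-Nd4 and mt-Co3 stood at -1.66, -0.60, -0.29, -0.15 and 0.037.

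**Figure D2:**
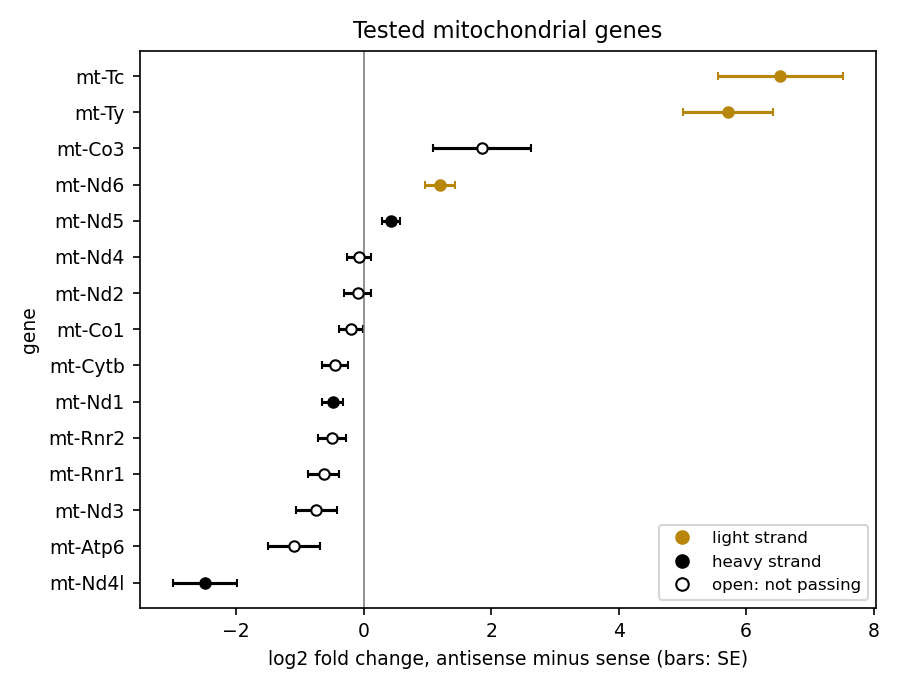
Log2 fold change, antisense minus sense, of the 15 tested mitochondrial genes, with standard errors; filled points passed at an adjusted p under 0.05 and ochre marks light-strand genes. The 3 light-strand genes lie to the right of 0. Of the 12 heavy-strand genes 10 lie to the left, the exceptions being mt-Nd5 and mt-Co3. Each value is for the gene's own row, and mt-Co3 summed with its pseudogene counterpart stood at 0.037. The sizes for mt-Tc and mt-Ty depend on a prior count because sense held 0 and 1 counts.

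The only mRNA of the light strand, mt-Nd6 (chromosome MT, 13552 to 14070, GRCm38.p6), encodes a subunit of complex I. Its level was 9.73, 11.9 and 9.38 CPM in antisense libraries 1, 2 and 3, against 5.69, 3.27 and 4.62 CPM in the sense libraries. All antisense values were above all sense values. The means were 10.4 ± 1.39 and 4.53 ± 1.21 CPM (SD, n = 3 each), and the log2 fold change was 1.19 (SE 0.235; edgeR adjusted p = 0.00127), a 2.28-fold rise. The call held whichever library was left out, with a log2 fold change between 0.998 and 1.38.

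Next to it and 14 bases into its span lies the end of mt-Nd5 (11742 to 13565), a heavy-strand gene for another complex I subunit. It stood at 93.7, 118 and 89.8 CPM in the antisense libraries and 89.3, 59.1 and 76.6 CPM in the sense libraries. The groups did not overlap, but antisense library 3 stood only just above sense library 1. The log2 fold change was 0.42 (SE 0.140; edgeR adjusted p = 0.0418). The call was lost without any one of 4 of the 6 libraries (antisense 1 or 2, sense 2 or 3), where the log2 fold change was 0.27 to 0.46, and with the replicate number as a block (adjusted p = 0.0695).

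Ratios between mRNAs of the same library need no scaling between libraries. The count of mt-Nd6 was 0.175, 0.138 and 0.197 times that of mt-Cytb in antisense libraries 1, 2 and 3, and 0.0501, 0.0478 and 0.0593 times in the sense libraries. The count of mt-Nd5 was 1.69, 1.36 and 1.88 times that of mt-Cytb in antisense and 0.786, 0.863 and 0.982 times in sense. Both ratios were higher in every antisense library than in any sense library, on average 3.24-fold for mt-Nd6 and 1.87-fold for mt-Nd5. These folds also carry the level of mt-Cytb, whose own log2 fold change was -0.45 (not passing). As scaled levels the folds were 2.28 and 1.34. Relative to mt-Nd4 and mt-Nd1, mt-Nd5 was on average 1.47-fold and 1.89-fold higher in antisense. By contrast mt-Nd1 stood at 0.519 to 0.657 of mt-Cytb in antisense and 0.527 to 0.697 in sense, with the groups overlapping. Its own log2 fold change, -0.49, was close to that of mt-Cytb. The ratio of mt-Nd2 to mt-Cytb was 0.198 to 0.244 in antisense and 0.148 to 0.209 in sense, again overlapping. Between the neighbours, mt-Nd6 reached 0.101 to 0.104 of the mt-Nd5 count in antisense and 0.0554 to 0.0637 in sense. The light-strand mRNA was thus higher in every antisense library also relative to the heavy-strand mRNA beside it.

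**Figure D3:**
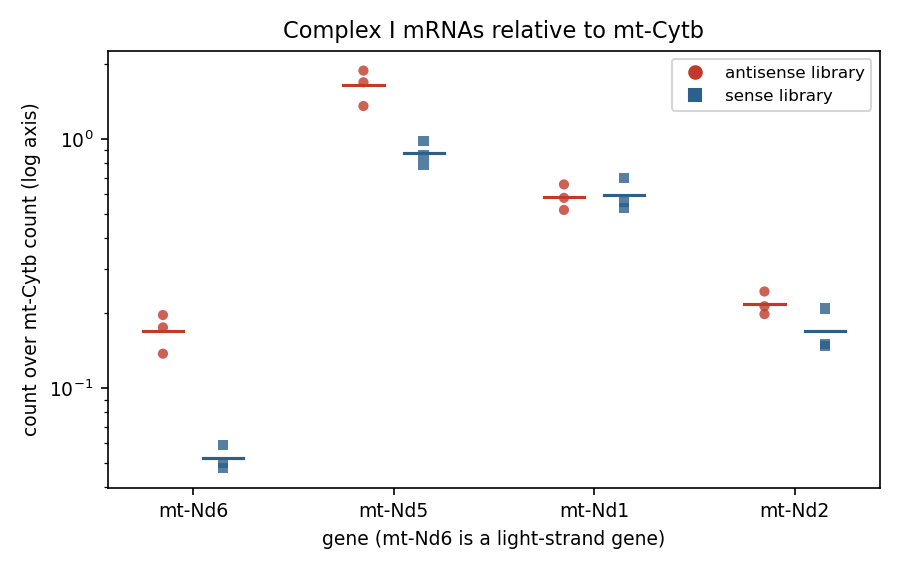
Counts of 4 complex I mRNAs divided by the count of mt-Cytb in the same library, on a log axis; points are libraries and bars are group means. The antisense points of mt-Nd6 (0.138 to 0.197) and mt-Nd5 (1.36 to 1.88) lie above the sense points, while those of mt-Nd1 and mt-Nd2 overlap with sense.

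The 8 light-strand tRNA genes summed to 85, 74 and 46.5 counts in antisense libraries 1, 2 and 3 and to 2 counts in each sense library. After scaling, the sum averaged 8.97 ± 2.52 CPM for antisense and 0.323 ± 0.0167 CPM for sense (SD, n = 3 each). The 14 heavy-strand tRNA genes summed to 35, 28 and 17 counts in antisense and 4, 3 and 5 in sense, or 3.49 ± 1.17 and 0.652 ± 0.195 CPM. Both sums were higher in every antisense library, and the light-strand genes supplied 70.8% to 73.2% of tRNA counts there. In sense, where the tRNA genes of both strands held 5 to 7 counts a library, the share was 28.6% to 40.0%.

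The tRNA gene for tyrosine, mt-Ty (5260 to 5326), had 37, 30 and 19 counts in antisense libraries 1, 2 and 3 and 0, 0 and 1 in the sense libraries. Over the groups, 86 counts stood against 1, a scaled ratio of 69.9 (95% exact interval 12.2 to 2793; edgeR adjusted p = 1.79e-05). The gene for cysteine tRNA, mt-Tc (5192 to 5257), had 18, 10 and 10 counts in antisense and none in sense. Against a floor of 3 counts over the sense group, mt-Tc was 10.3-fold higher in antisense (edgeR adjusted p = 0.000196). Such a bound leaves out the counting error of the antisense counts. Since counts in antisense alone brought both genes into the test, their p-values describe these counts and are no further support.

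The other 20 tRNA genes had too few counts to be tested, and those named here were chosen after their values were seen. Among light-strand genes, mt-Te (glutamate) had 14, 5 and 4 counts in antisense and 0 in sense, 6.23-fold above the same floor. For mt-Tn (asparagine) 23 counts in antisense stood against 1 in sense, a ratio of 18.7 (95% exact interval 3.04 to 770). For mt-Ta (alanine) 9 stood against 0, 2.44-fold above that floor. With no filter on low counts mt-Ta did not pass (edgeR adjusted p = 0.0842). The serine gene mt-Ts1 had 8 counts in antisense, 7 of them in library 2, and 0 in sense. The proline gene mt-Tp had 7, 9 and 1 counts in antisense and 2, 0 and 1 in sense, and mt-Tq (glutamine) had 1 count in each group. Light-strand tRNA genes thus differed widely in count, with mt-Ty highest and mt-Tq lowest.

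Among heavy-strand tRNA genes mt-Tl2, for a leucine tRNA, had 13, 13 and 9 counts in antisense and 0, 1 and 0 in sense, a ratio of 28.5 (95% exact interval 4.78 to 1156). The histidine gene mt-Th had 9, 7 and 2 counts in antisense and 1, 0 and 1 in sense, a ratio of 7.32 (1.75 to 65.0). With no filter on low counts mt-Tl2, mt-Te and mt-Tn also passed as higher (edgeR adjusted p = 0.000623, 0.00382 and 0.0103), and mt-Th did not (0.0824). The serine gene mt-Ts2 had 2, 1 and 2 counts in antisense and 0 in sense, and did not pass with no filter either (edgeR adjusted p = 0.228). Of the other heavy-strand tRNA genes, mt-Td and mt-Tg had no count in any library. The remaining 9 held 0 to 7 counts over the antisense group and 0 to 5 over the sense group, too few to show a difference at this depth.

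Counting every gene, tested or not, 11 lay higher in all antisense libraries than in all sense libraries, 1 lay lower (mt-Nd4l) and 25 overlapped. Of the 35 with a count, these were 31.4% and 2.86%, against 20.9% and 8.55% of all 35305 rows with a count. Among the 15 tested, 4 lay higher (26.7%) and 1 lower (6.67%), against 23.4% and 13.2% of all tested genes. In genome order 10 of the 11 fall in 2 runs of adjacent genes. One run is 4 light-strand tRNA genes, mt-Ta, mt-Tn, mt-Tc and mt-Ty (5018 to 5326), and the other is 6 genes from mt-Th through mt-Ts2, mt-Tl2, mt-Nd5 and mt-Nd6 to mt-Te (11546 to 14139), of which the first 4 are heavy-strand genes. The remaining one was mt-Tk, with 1 count in each antisense library and 0 in sense. This grouping was seen in the data and was not tested. Whether the counting used strand is not given in the sources used here, and without it reads of a light-strand gene and of heavy-strand precursor over the same bases cannot be told apart, nor the reverse.

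**Figure D4:**
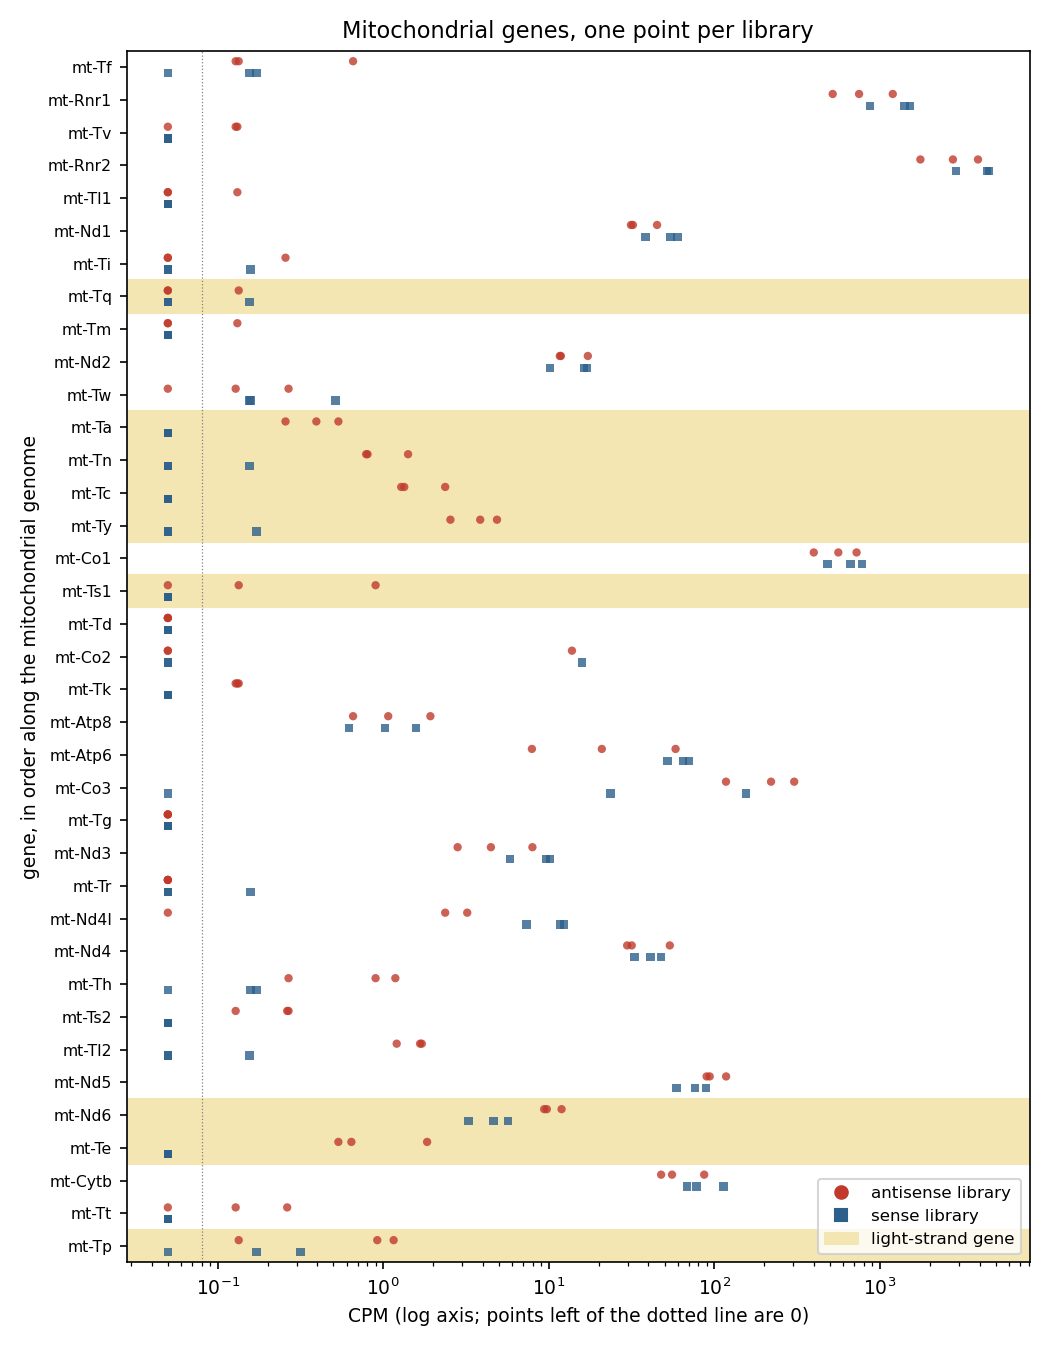
CPM of all 37 mitochondrial genes in genome order, one point per library on a log axis, with zeros left of the dotted line and light-strand genes shaded. The rRNAs and mt-Co1 lie to the right and the tRNA genes to the left; antisense and sense points separate from mt-Ta to mt-Ty and from mt-Th to mt-Te and overlap over most of the other genes.

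The rRNAs, which form the core of the mitochondrial ribosome, were the most abundant members. The 16S rRNA gene mt-Rnr2 (1094 to 2675) stood at 2759, 3912 and 1756 CPM in antisense libraries 1, 2 and 3 and 4449, 2880 and 4540 CPM in the sense libraries. The 12S gene mt-Rnr1 (70 to 1024) stood at 748, 1195 and 518 CPM in antisense and 1408, 874 and 1526 CPM in sense. In both, antisense library 2 lay among the sense values, and neither passed (log2 fold changes -0.49, SE 0.224, and -0.63, SE 0.240; edgeR adjusted p = 0.139 and 0.0781). Without antisense library 2 both passed as lower, at -0.82 and -1.01 (adjusted p = 0.0107 and 0.00273), and without sense library 2 at -0.67 and -0.83 (0.0425 and 0.0182). The ratio of 12S to 16S was 0.271 to 0.306 in antisense and 0.304 to 0.336 in sense, with the ranges overlapping.

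Per kilobase of gene, mt-Rnr2 held 1776 ± 682 CPM in antisense and 2501 ± 590 CPM in sense, and mt-Rnr1 859 ± 361 and 1329 ± 364 (SD, n = 3 each). The catalytic complex IV subunit gene mt-Co1 (5328 to 6872) followed at 363 ± 105 and 415 ± 96.2 CPM per kilobase, near mt-Co3 summed with its pseudogene counterpart (described further on), at 376 ± 101 and 366 ± 109. Of the genes for which no such counterpart was identified, mt-Cytb (55.4 ± 18.1 and 75.8 ± 20.9), mt-Nd5 (55.1 ± 8.30 and 41.1 ± 8.33) and mt-Nd1 (37.8 ± 8.03 and 53.1 ± 11.7) lay far below mt-Co1. The light-strand mt-Nd6 had 19.9 ± 2.68 and 8.73 ± 2.34 CPM per kilobase, and mt-Nd2, at 13.1 ± 3.04 and 14.0 ± 3.66, had a lower mean than mt-Nd6 in antisense and a higher one in sense.

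Of the 10 tested heavy-strand mRNAs, 7 did not pass, among them mt-Co1, mt-Cytb and mt-Nd2. The complex IV gene mt-Co1 stood at 561, 723 and 399 CPM in antisense libraries 1, 2 and 3 and 777, 483 and 665 CPM in the sense libraries (log2 fold change -0.19, SE 0.187; edgeR adjusted p = 0.514). The complex III gene mt-Cytb (14145 to 15288) stood at 55.5, 86.8 and 47.7 CPM in antisense and 114, 68.4 and 77.9 CPM in sense (-0.45, SE 0.202; edgeR adjusted p = 0.134). Without antisense library 2 it passed as lower, at -0.76 (edgeR adjusted p = 0.00714). The complex I gene mt-Nd2 (3914 to 4951) stood at 11.8, 17.2 and 11.7 CPM in antisense and 17.1, 10.1 and 16.3 CPM in sense (-0.09, SE 0.212; edgeR adjusted p = 0.815). In each of these the groups overlapped, with antisense library 2 highest in its group and sense library 2 lowest.

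Another complex I gene, mt-Nd1 (2751 to 3707), was called lower, by a narrow margin. It stood at 32.2, 45.1 and 31.3 CPM in antisense and 59.9, 38.3 and 54.3 CPM in sense, and the groups overlapped. Its log2 fold change was -0.49 (SE 0.165; edgeR adjusted p = 0.0469). The call was lost without any one of antisense libraries 1 or 3 or sense libraries 1 or 3 (adjusted p = 0.136 to 0.197), under a replicate block (0.0867) and when the totals left Gas5 out (0.0593). The ATP synthase gene mt-Atp8 (7766 to 7969) had 5, 15 and 8 counts in antisense and 10, 4 and 6 in sense, too few to be tested.

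The other 6 heavy-strand mRNAs had a counterpart among rows that the authors' deposited table lists as unprocessed pseudogenes. Salmon divides a read that fits several transcripts between them, which leaves fractional counts. For mt-Atp6, mt-Co2, mt-Co3, mt-Nd3 and mt-Nd4, 1 gene alone of the other 49488 gave a sum that was whole, to within 0.01, in all 6 libraries. These partners were Gm10925, Gm28661, Gm28437, Gm28438 and Gm28439 in that order. Gm10925 lies in the nuclear genome, on chromosome 1 from 24613971 to 24614651, has the same length as mt-Atp6 (681 bases) and carries mt-Atp6 among its RefSeq synonyms. Nearby on chromosome 1 (24612404 to 24612700) lies Gm10222, which has the length of mt-Nd4l (297 bases). The counts of mt-Co1 were fractional in all 6 libraries, and no single row gave whole sums with it. Those of mt-Nd5 and mt-Ta were fractional in 1 library each. There 31 and 15 rows gave whole sums, so no partner could be named. The levels of these genes, like those of the genes above, are for their own rows.

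How the reads were divided differed from library to library. For mt-Co3, a complex IV gene (8607 to 9390), 894, 2364 and 1642 counts were listed in antisense libraries 1, 2 and 3 and 149, 0 and 904 in the sense libraries, while Gm28437 held 1279, 580.1 and 0 in antisense and 2197, 1284 and 793 in sense. The pair held 2173, 2944 and 1642 counts in antisense and 2346, 1284 and 1697 in sense. On the log2 scale the difference was 1.86 for mt-Co3 alone (SE 0.768; edgeR adjusted p = 0.104) and 0.037 for the sum (SE 0.196; adjusted p = 0.922). Without sense library 3, mt-Co3 alone passed at 4.18 (adjusted p = 0.000692), and it also passed with the replicate block (adjusted p = 0.0392). For mt-Co2 (7013 to 7696), listed at 0 in 4 of the 6 libraries and therefore not tested, the sum with Gm28661 was 918, 1337 and 676 in antisense and 1244, 694 and 934 in sense (-0.28, SE 0.208; edgeR adjusted p = 0.389). These sums and those that follow were chosen after the data were seen.

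As sums, 2 of the pairs were lower in antisense. mt-Nd4l (9877 to 10173), a complex I gene, had 18, 0 and 24 counts in antisense and 78, 47 and 68 in sense, and Gm10222 had 33 counts in antisense library 2 and 0 in every other library. Alone, mt-Nd4l was lower, at -2.49 on the log2 scale (SE 0.506; edgeR adjusted p = 0.00164), but DESeq2 gave an adjusted p = 0.185. The sum was 18, 33 and 24 counts in antisense and 78, 47 and 68 in sense, with every antisense value under every sense value, and its log2 fold change was -1.66 (SE 0.274; edgeR adjusted p = 0.000235). The decrease was thus 3.16-fold for the sum, in place of 5.60-fold.

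The other was the ATP synthase gene mt-Atp6 (7927 to 8607), listed at 159, 454 and 58.7 counts in antisense and 443, 334 and 376 in sense. It did not pass alone (-1.09, SE 0.407; edgeR adjusted p = 0.0714), though it did without antisense library 2 (-2.11; adjusted p = 6.79e-05) and with the replicate block (-1.36; adjusted p = 0.0268). With Gm10925 it held 294, 454 and 254 counts in antisense and 519, 334 and 376 in sense (log2 scale -0.60, SE 0.183; edgeR adjusted p = 0.0275), and its CPM values overlapped between the groups. The complex I genes mt-Nd3 (9459 to 9806) and mt-Nd4 (10167 to 11544) did not pass alone (-0.75, SE 0.324, and -0.07, SE 0.195; edgeR adjusted p = 0.123 and 0.839). Alone, mt-Nd3 passed as lower with the replicate block (-0.79; edgeR adjusted p = 0.0389) and without antisense library 2 (-1.23; edgeR adjusted p = 0.0114). Neither gene passed when summed with its partner, at -0.29 (SE 0.263) and -0.15 (SE 0.208; adjusted p = 0.495 and 0.676).

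**Figure D5:**
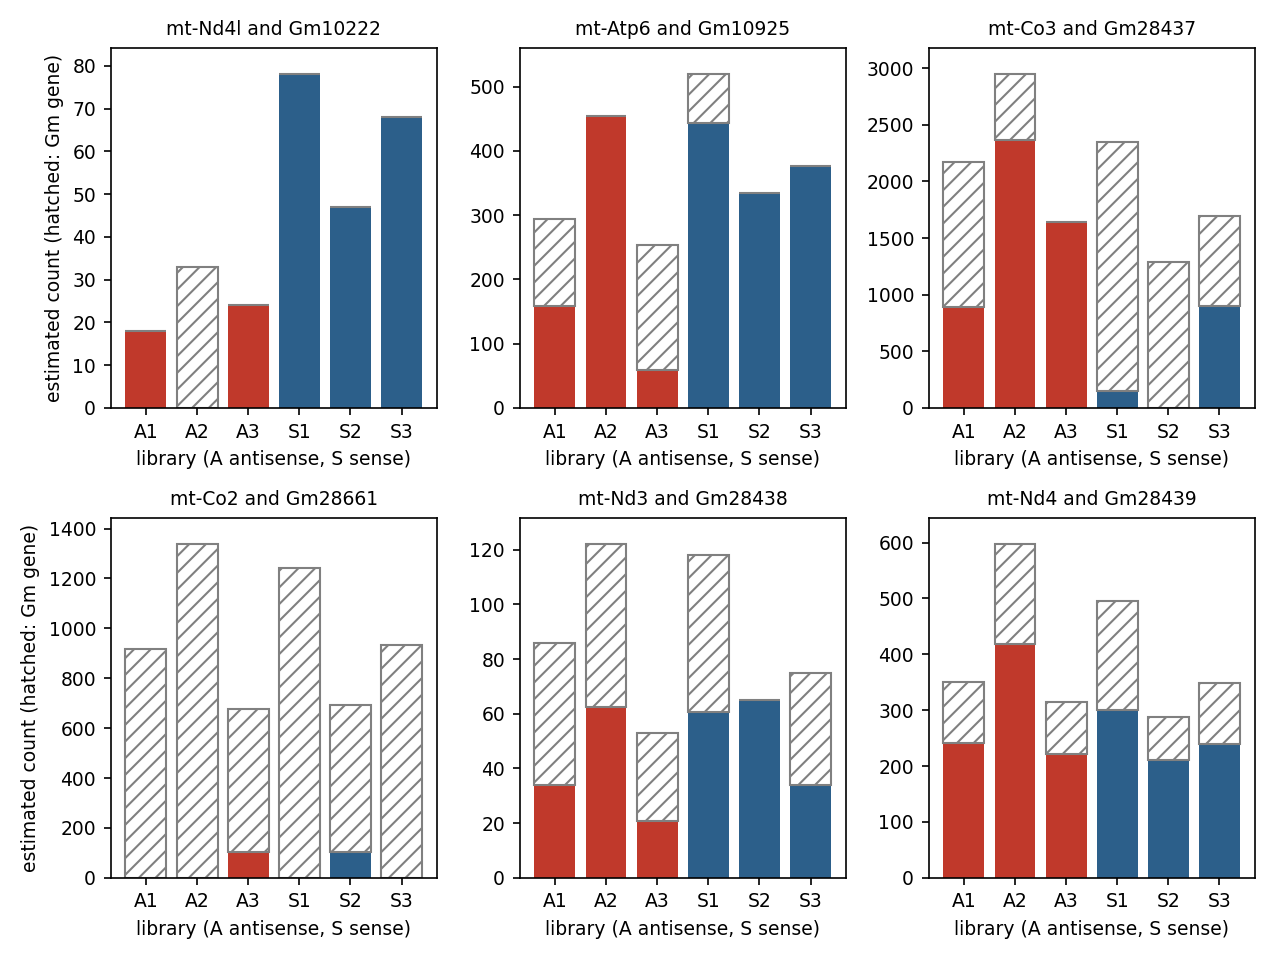
Estimated counts of 6 heavy-strand mRNAs (solid; red antisense, blue sense) with those of the pseudogene row paired with each (hatched, stacked), per library A1 to A3 (antisense) and S1 to S3 (sense). For mt-Co3 the solid part runs from 0 to 2364, while the stack runs from 1284 to 2944. For mt-Nd4 the stack (288 to 597) varies about as much as the solid part (211 to 419). For mt-Nd4l the antisense stacks (18 to 33) stay under the sense stacks (47 to 78).

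Nuclear genes that transcribe the mitochondrial genome and process its RNA did not pass. Of 46 listed, 45 were tested, and 0 were called higher or lower by edgeR or by DESeq2. In the edgeR fit 18.2% of all genes tested were called higher and 4.35% lower. At an unadjusted edgeR p under 0.05, 4 listed genes were higher and 0 lower. No share of all genes at that threshold is given to set beside them. The median log2 fold change was -0.04, beside -0.01 for all genes tested, and values ran from -0.43 to 0.70. Polrmt, the gene of the mitochondrial RNA polymerase, averaged 19.8 ± 1.83 CPM in the antisense libraries and 19.6 ± 3.56 CPM in the sense libraries (SD, n = 3 each; log2 fold change 0.012, SE 0.151). The packaging and transcription factor gene Tfam had 13.6 ± 1.34 and 16.7 ± 2.17 CPM (-0.29, SE 0.156). The genes for LRPPRC and SLIRP, which together stabilise heavy-strand mRNAs, stood at 88.9 ± 7.15 and 93.4 ± 0.792 CPM (Lrpprc, -0.07) and 4.68 ± 1.42 and 5.50 ± 0.758 CPM (Slirp, -0.23). Elac2, which cuts tRNA precursors at their 3′ ends, had a log2 fold change of -0.11 (SE 0.156). For Pnpt1 and Supv3l1, whose products form the complex that degrades light-strand RNA, it was 0.08 (SE 0.108) and -0.14 (SE 0.134). The 4 genes at the unadjusted threshold were Trnt1, Trmt5, Mto1 and Nsun4, which add or modify bases in tRNA or rRNA, at 0.30 to 0.54 (edgeR adjusted p = 0.0557 to 0.122).

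In the authors' deposited table, whose fold changes run sense over antisense, 25 of the 37 genes have an adjusted p, and 6 fall under 0.05, all lower in sense: mt-Ty, mt-Tc, mt-Nd6, mt-Tl2, mt-Te and mt-Nd5. That is 24% of those 25, while 13.8% of all 27965 genes with an adjusted p in the authors' deposited table were called lower in sense and 2.18% higher. The authors' deposited table gives mt-Nd6 a log2 fold change of -1.19 (adjusted p = 0.00296) and mt-Nd5 one of -0.42 (adjusted p = 0.0464). There mt-Nd4l at 2.50 and mt-Nd1 at 0.49 did not pass (adjusted p = 0.206 and 0.0589 in the authors' deposited table).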

How the data were processed

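The submitters' processing notes name Salmon, DESeq and GRCm38 without versions; settings, transcript index and strand of counting were not given in the sources used. For 49489 gene symbols in 6 libraries, the authors' total RNA table lists estimated counts, rounded here to whole numbers for tests, and 0 columns of library values were left unused. Per gene, the authors' deposited comparison lists the signal (mean over size-factor-scaled libraries), the log2 fold change, its standard error (treated as a score) and both p-values.

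Rows were kept by filterByExpr (minimum count 10), scaled by TMM and compared, antisense minus sense, with edgeR 4.0.16 (R 4.3.3) by its two-sided quasi-likelihood F test on the whole table, at a false discovery rate of 0.05; DESeq2 1.42.0 was an alternative, as were other scalings and filters, a replicate block and leaving out each library; sums with pseudogene rows were added after seeing the data. The SE is the size of the log2 fold change over the square root of F. Positions and lengths came from RefSeq (GRCm38.p6), which gives no strand in the table used; all 37 genes were matched.

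Each mRNA and rRNA gene, each tRNA gene that passed or averaged 10 counts, and every passing or key gene of the nuclear list were to be named. The members and lists were chosen with earlier results of these data known. On simulated counts for this comparison (19630 genes tested, 200 changed), the fit recovered 43 of 67 genes at 1.5-fold, 58 of 67 at 2-fold and 66 of 66 at 4-fold, with 7 false calls. That setting is unlike the data, where 22.6% of all 20049 genes tested were called, so recovery and false calls there may differ. Depth was 5775052 to 10424167 counts a library. Intervals reflect counting error alone, and bounds only that of the sense counts, as PCR reads that lack molecular identifiers are not independent molecules.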

Additional observations from a re-analysis of the deposited data

How the results depend on the processing

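The light-strand share was higher in antisense under each alternative run. The difference was 0.353 percentage points over all mitochondrial counts, and 0.320 to 0.404 points without any one library. It was 0.559 points over mRNA genes alone, 1.36 points without the rRNAs and 0.193 points without mt-Nd6. Added after seeing the data, it was 10.96 points over genes with whole counts outside the rRNAs. These points have unlike denominators and cannot be set against one another. As antisense over sense, the mean share was 5.56-fold over all mitochondrial counts, 3.98-fold without the rRNAs and 2.31-fold over mRNA genes alone. The share of all mitochondrial genes outside Gas5 was lower in antisense by 0.218 points (-0.349 to -0.105 without any one library), but was higher by 0.122 points with Gas5 included in the total and by 0.0056 points without the rRNAs. The number of members called higher, 4, became 8 on library totals alone, 8 with no filter on low counts and 2 at a minimum count of 50 (4 to 5 without any one library). With Gas5 left out it was 3, namely mt-Ty, mt-Nd6 and mt-Nd5. The number called lower, 2, became 1 by DESeq2, 1 with Gas5 left out, 1 on library totals alone, 5 with no filter and 0 by edgeR at a minimum count of 50. At that minimum 11 members were tested, of which 3 were lower and 3 higher at an unadjusted edgeR p under 0.05. No share of all genes at that unadjusted threshold is given to set beside them. By adjusted p the number lower was 0 there, as stated. It was 1 to 7 without any one library, and 7 without antisense replicate 2. With the mitochondrial mRNA counts as library size, mt-Nd5 and mt-Nd1 did not pass (edgeR adjusted p = 0.866 and 0.692), at nearly the same log2 fold changes, 0.42 and -0.50. In that run mt-Co3 alone passed as higher (1.96, edgeR adjusted p = 2.78e-07) and mt-Atp6 alone as lower (-1.29, edgeR adjusted p = 0.00254). There mt-Nd6 passed only narrowly (edgeR adjusted p = 0.0491). On library totals alone 7 heavy-strand genes turned positive: mt-Rnr1 (0.12), mt-Rnr2 (0.25), mt-Nd1 (0.26), mt-Nd2 (0.66), mt-Co1 (0.56), mt-Nd4 (0.67) and mt-Cytb (0.30). Without single libraries mt-Nd2 ranged from -0.31 to 0.034 and mt-Nd4 from -0.40 to 0.078, neither passing. Of the nuclear genes acting on mitochondrial RNA, 30 were higher on library totals alone, 1 at a minimum count of 50, and 0 to 1 higher and 0 lower without any one library. With the replicate block the numbers of members higher and lower were 4 and 3, and those of all 20049 genes tested were 3428 and 695. The same-numbered libraries of the groups correlated at 0.08, -0.10 and -0.01 in their deviations. With 3 libraries a group, these values cannot show whether same-numbered libraries shared a culture. Over all 20049 genes tested, 3658 were higher and 873 lower. On library totals alone these were 12804 and 62, with mitochondrial mRNA counts as library size 2387 and 117, and by DESeq2 3316 and 648. With no filter they were 5027 and 998 of 35255 genes, and at a minimum count of 50 they were 1795 and 402 of 13102. With Gas5 left out they were 3519 and 741 of 20033. Without any one library 492 to 1100 were lower. The cause of these changes was not tested. Depth limits the tRNA genes, most of which held under 10 counts a library.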
